A study of Mus musculus with 12 samples.

Results

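The 9 genes of the mouse Hoxc cluster were followed at embryonic stage E12.5 in mouse autopods, the plates that form the hand and the foot. The cluster holds Hoxc13, Hoxc12, Hoxc11, Hoxc10, Hoxc9, Hoxc8, Hoxc6, Hoxc5 and Hoxc4 in this order, from the gene used farthest toward the tail to the one used nearest the head. Every probe set annotated to exactly 1 of these genes was taken, which gave 11 of the 45265 probe sets of the Affymetrix MOE430 array pair, 8 from the A design and 3 from the B design. They covered 7 of the 9 genes, out of 18194 genes with a probe set of their own on either array, while Hoxc11 and Hoxc12 had no probe set of their own and were not analysed here. Hoxc10 was measured on the B array alone, Hoxc5 on both, and the other 5 genes on the A array.

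Dissected hindlimb autopods (samples 12, 14 and 26) were compared with forelimb autopods (samples 11, 13 and 25), each sample on 1 A and 1 B array. All samples were wild type, and no strain or treatment was given in the labels. The labels do not say whether a sample was 1 embryo or a pool, so the p-values measure the spread between these samples, which may be technical. The limb of forelimb 11 on the A array was taken from its title, since its tissue label names no limb.

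Hox genes encode homeodomain transcription factors that give cells their position along the body and along the limb. In a cluster they lie in the order in which they are used, and in the limb plate the 5' genes of the Hoxa and Hoxd clusters are the main regulators of growth and digit pattern. Hoxc genes are best known in the trunk, in motor neurons and in skin and its appendages. In the mouse limb Hoxc10 and Hoxc11 are known from the hindlimb, Hoxc4 and Hoxc5 from the forelimb level, and Hoxc13 from nails and hair.

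Levels are MAS5.0 signals brought to a 2% trimmed mean of 500 on each array. A probe set was tested where this scaled signal reached 100 on at least 3 of the 6 arrays of its design. Differences are log2 hindlimb minus forelimb of log2(scaled signal + 32), a scale on which changes of dim probe sets come out too small, from 3 samples of each limb. Signals of different probe sets are not on one scale, because probes differ in how strongly they bind, so no gene's level is set against another's. The B array was also stretched by the scaling: through the 100 probe sets that both designs carry, a scaled B signal corresponded to 0.312 times as much on the A array.

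The samples carried the marks of their limb. Tbx5, the T-box factor of the forelimb, had signals of 8.0 to 13.9 in hindlimb against 474 to 555 in forelimb on 1 probe set, and Tbx4, its hindlimb counterpart, had 4497 to 5558 in hindlimb against 1124 to 1251 in forelimb on the B array. Hoxd13, a defining gene of the autopod, had 1918 to 2935 in hindlimb and 1962 to 2876 in forelimb on the A array. Each array design was fitted as a whole by limma, with 15338 probe sets tested for the A design and 17145 for the B design.

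Of the 11 Hoxc probe sets 7 were tested, from 6 genes, and 0 passed a limma adjusted p of 0.05. Over the whole arrays 0.0326% (A array) and 0.0117% (B array) of the tested probe sets passed. At an unadjusted p under 0.05 there was 1 of 5 Hoxc probe sets on the A array (Hoxc13, lower in hindlimb) and 1 of 2 on the B array (Hoxc10, higher in hindlimb), where the share among all tested probe sets was 5.54% on either array. The limbs did not overlap on these same 2 probe sets. Hoxc13 passed the signal filter only through the forelimb, where it was high, so its place in these counts supports nothing. Of all tested probe sets, the hindlimb lay wholly below the forelimb in 6.10% (A array) and 6.14% (B array) and wholly above it in 4.94% (A array) and 4.81% (B array). The median difference was -0.04 over the 5 tested Hoxc probe sets of the A array and -0.01 over all tested there. On the B array the Hoxc pair had a median of 0.52, which is the midpoint of unlike values, and all tested probe sets a median of -0.01.

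**Figure D1:**
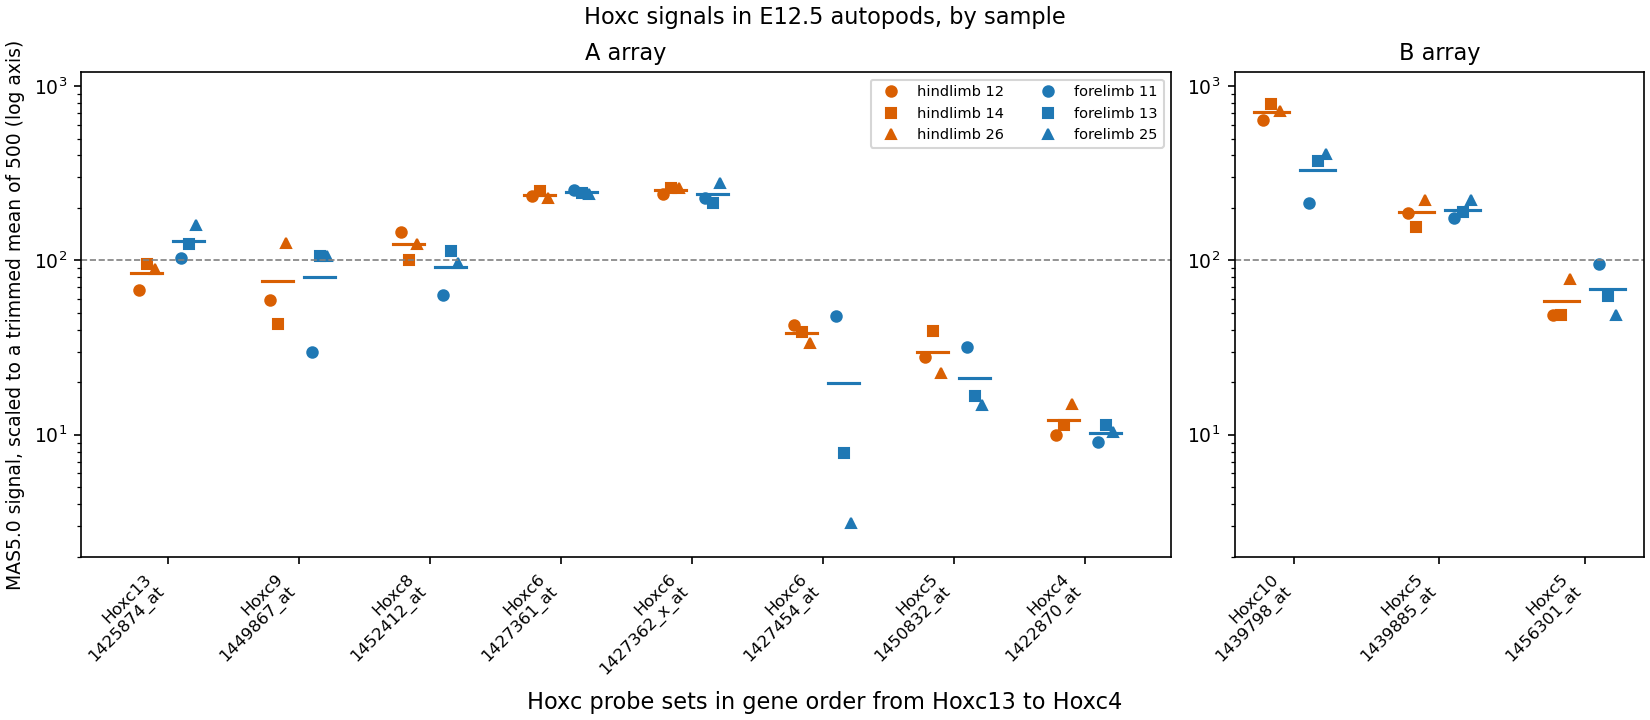
Scaled MAS5.0 signal (log axis) of each Hoxc probe set in each sample, in gene order from Hoxc13 to Hoxc4, with the A array on the left and the B array on the right. Orange is hindlimb and blue forelimb, short bars are the means of 3 samples, and the dashed line is the filter at 100; the hindlimb lies wholly above the forelimb for Hoxc10 and wholly below it for Hoxc13.

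Hoxc10, a posterior Hox gene known from the hindlimb, had the largest difference among the tested Hoxc probe sets. On its only probe set (1439798_at) the scaled signal was 637, 791 and 715 in hindlimb 12, 14 and 26, against 213, 371 and 409 in forelimb 11, 13 and 25. All hindlimb samples lay above all forelimb samples. The mean was 714 ± 76.8 in hindlimb and 331 ± 104 in forelimb (SD, n = 3 each), a ratio of 2.16. The log2 difference was 1.08 ± 0.24 (SE), with a 95% interval of 0.56 to 1.60.

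This difference had an unadjusted limma p of 0.000848, the rank of 25 among the 17145 probe sets tested, and an adjusted p of 0.555, so it did not pass over the whole array. An exact two-sided permutation test over the 6 samples gave p = 0.1, the smallest that 3 against 3 samples allow. The forelimb samples themselves differed: forelimb 11 had 213, well under forelimb 13 and 25. Without forelimb 11 the difference was 0.82 (adjusted p = 0.971), and without any other single sample it was 1.01 to 1.24. On the scale of the A array the Hoxc10 signal was 199 to 247 in hindlimb and 66.5 to 128 in forelimb. No detection calls were used, so whether the forelimb signal stood above background was not tested.

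The settings were checked for Hoxc10 because it carries the main contrast of the cluster. In 16 other settings the difference kept its sign, at 0.82 to 1.24, and in 0 of them did it pass the threshold.

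**Figure D2:**
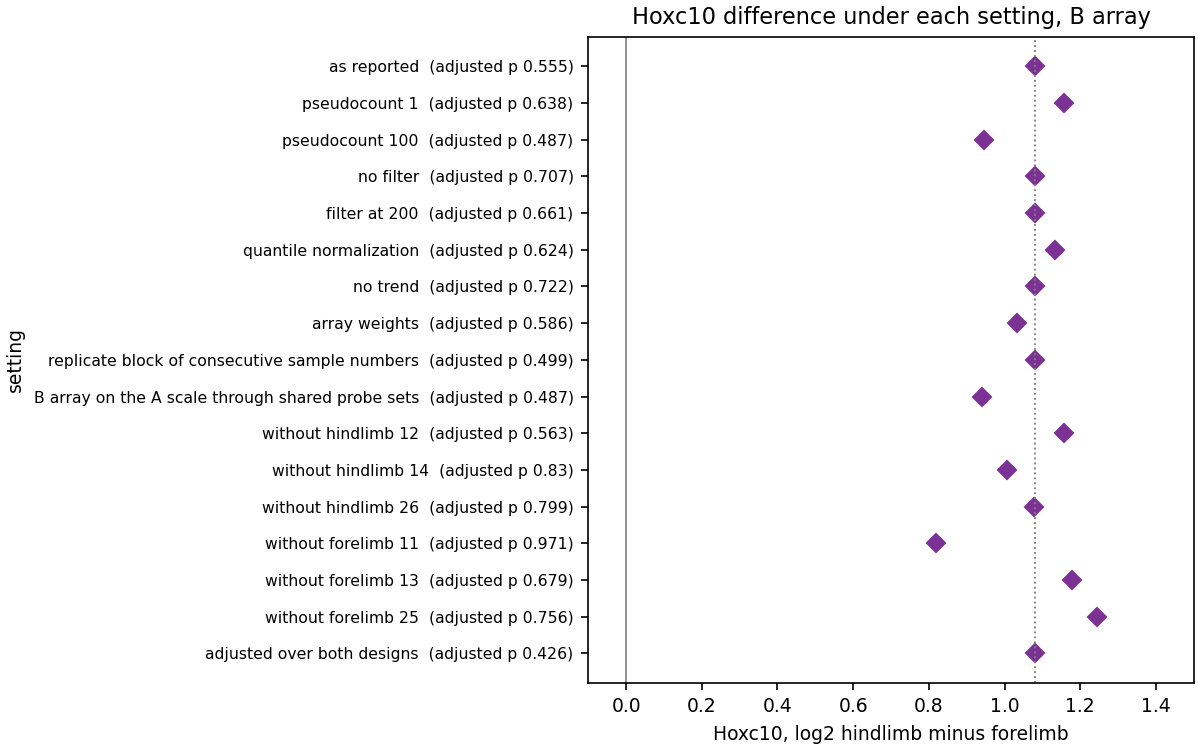
Log2 hindlimb minus forelimb of Hoxc10 on the B array (x axis) as reported and under each other setting (rows, with the limma adjusted p beside each name); the dotted line is the reported value of 1.08. All points lie right of 0, and leaving out forelimb 11 gives the lowest, 0.82.

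None of the marker lists of other tissues with probe sets on the B array (neuron, proximal limb, ectoderm and muscle) parted the limbs there by its summed signal. Summed signals of the spinal cord and neuron markers, cells of the trunk that also use Hoxc genes, were 839 to 956 in hindlimb and 605 to 841 in forelimb (2 of 10 genes had a probe set on this array, both above the filter). On the A array 9 of 10 of these markers had a probe set, with sums of 804 to 976 in hindlimb and 784 to 849 in forelimb, and all probe sets of Elavl3, Mnx1, Olig2, Sox2 and Tubb3 were below the filter. The 4 tested neuron probe sets of the A array all had positive differences, among them Nefm, a neurofilament of axons, at 0.72 ± 0.20 (limma adjusted p = 0.599). Nefm passed the filter only through the hindlimb, with 103.5 to 160.5 in hindlimb against 64.7 to 77.8 in forelimb. The 2 tested neuron probe sets of the B array, of Chat (0.25) and Nefl (0.20), were positive as well, each with overlapping limbs. Neuron probe sets of the A array below the filter had differences of both signs, such as those of Mnx1 (-0.51) and Stmn2 (0.34). The shared sign of the tested ones was not tested. Proximal limb markers on the B array summed to 3605 to 4187 in hindlimb and 3356 to 4129 in forelimb, with 3 of 7 genes measured. RNA quality, read as the log2 of the 3' over the 5' Gapdh signal, was -0.17 to -0.11 in hindlimb and -0.25 to -0.07 in forelimb on the B array. The part of nerve in the Hoxc10 value was not tested. In such bulk samples, more cells that express a gene and more RNA per cell cannot be told apart.

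Hoxc13, the last gene at the 5' end of the cluster, had a difference of the other sign. Its probe set (1425874_at) had scaled signals of 67.8, 95.4 and 89.5 in hindlimb 12, 14 and 26, against 103, 124 and 160 in forelimb 11, 13 and 25. The limbs did not overlap, but hindlimb 14 and forelimb 11 lay close together. The log2 difference was -0.46 ± 0.21 (SE, 95% interval -0.92 to -0.01), with an unadjusted limma p of 0.0473 and an adjusted p of 0.888. The probe set passed the filter only through the forelimb, since 0 of 3 hindlimb signals reached 100, and with a filter at 200 it was not tested.

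Because Hoxc13 is known from the surface ectoderm and its appendages, the ectoderm markers were set beside it. On the A array 9 of 10 had a probe set, and their summed signal was 4345 to 4914 in hindlimb against 5108 to 6596 in forelimb, without overlap. Of the 10 tested ectoderm probe sets on this array 5 were negative and 5 positive, and 0 passed the limma adjusted threshold. The negative ones were of the basal keratins Krt15 (-1.38, adjusted p = 0.059), Krt14 (-0.83 and -0.66) and Krt5 (-0.40), each with the hindlimb wholly below the forelimb, and of Epcam (-0.01). The positive ones were Krt18 (0.31), Krt8 (0.28), Trp63 (0.09), a further Krt14 probe set (0.08) and Cdh1 (0.01). Among these, Krt8 and the further Krt14 probe set had the hindlimb wholly above the forelimb. Every probe set of Fgf8, the factor of the ridge at the limb tip, was below the filter. The sum of proximal limb markers was also lower in hindlimb on this array (7 of 7 genes, 1326 to 1587 in hindlimb against 1685 to 1911 in forelimb). Of their 5 tested probe sets 4 were negative and 1 was positive, that of Hoxa11 (0.20), while Meis1 and Shox2 were below the filter. The sum of Schwann cell and crest markers was lower as well (4 of 6 genes, 1010 to 1312 in hindlimb against 1351 to 1449 in forelimb). The Schwann and crest markers did not move together. Ngfr had -0.72 without overlap on its tested probe set, while those of Sox10 (0.004 and -0.12) and Erbb3 (-0.12) overlapped. Foxd3, below the filter, had the hindlimb wholly above the forelimb (0.63). The Gapdh ratio, at -0.30 to -0.26 in hindlimb and -0.24 to -0.08 in forelimb, also parted the limbs on this array (exact two-sided permutation p = 0.1, the smallest possible). The same ratio of beta-actin had the other sign and overlapping limbs, at 0.22 to 0.27 in hindlimb and 0.12 to 0.26 in forelimb (exact p = 0.3). The part of these in the Hoxc13 value was not tested.

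Hoxc9, which in the mouse flank helps to hold Tbx5 off behind the forelimb, did not part the limbs. Its probe set (1449867_at) had signals of 59.0, 43.0 and 125 in hindlimb 12, 14 and 26, against 30.0, 106 and 105 in forelimb 11, 13 and 25. Each limb held samples near 100 and samples well below it, and the highest signal was 4.17 times the lowest. The difference was -0.04 ± 0.36 (SE, limma adjusted p = 0.997), with a 95% interval of -0.84 to 0.76 that leaves room for a change of either sign. Without forelimb 11 it was -0.43 and without hindlimb 14 it was 0.18.

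Hoxc8, a trunk gene of the middle of the cluster, had 146, 100 and 124 in hindlimb 12, 14 and 26, against 63.4, 113 and 97.1 in forelimb 11, 13 and 25 (probe set 1452412_at). Hindlimb 14 lay inside the forelimb range, so the limbs overlapped. Signals reached the filter at 100 in 3 of 3 hindlimb and 1 of 3 forelimb samples, so the probe set was tested mainly through the hindlimb. The difference was 0.35 ± 0.22 (SE, 95% interval -0.13 to 0.83, limma adjusted p = 0.955). It was 0.18 without forelimb 11, the lowest sample on this probe set as well.

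Between Hoxc10 and Hoxc9 the RefSeq gene table places Mir196a-2, whose microRNA is known to repress Hoxc8 and Hoxb8 and was described in the mouse hindlimb. It is shown here as the regulatory RNA that lies beside the gene with the largest difference. The arrays carried no probe set annotated to it, so no level is given. Its mature 5' arm lies at chr15:102973365-102973386 on the plus strand of GRCm38.p6 (RefSeq), and the seed, bases 2 to 8, is in capitals.
mmu-miR-196a-5p: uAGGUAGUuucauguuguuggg

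Hoxc6, known from the upper trunk and the early forelimb, was measured by 3 probe sets on the A array. The first (1427361_at) had 233, 251 and 229 in hindlimb 12, 14 and 26, against 253, 243 and 242 in forelimb 11, 13 and 25. It was the steadiest of the Hoxc probe sets, with its highest signal 1.11 times its lowest, and gave a difference of -0.04 ± 0.14 (SE, 95% interval -0.35 to 0.26, limma adjusted p = 0.995). The second (1427362_x_at, a kind of set whose probes can also bind other transcripts) had 241 to 262 in hindlimb and 214 to 278 in forelimb, with a difference of 0.08 ± 0.15 (95% interval -0.25 to 0.41). On both, the samples of the limbs were mixed, and the 95% intervals leave out a change of 1.08, the size seen for Hoxc10.

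The third Hoxc6 probe set (1427454_at) was below the filter on all arrays, with 33.6 to 42.7 in hindlimb and 48.1, 7.9 and 3.1 in forelimb 11, 13 and 25. Forelimb 11 was the highest sample there and the other forelimb samples the lowest. It was not tested.

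Hoxc5, an anterior gene of the cluster, had 3 probe sets of which 1 was tested, on the B array. That one (1439885_at) had 186, 156 and 223 in hindlimb 12, 14 and 26, against 176, 189 and 221 in forelimb 11, 13 and 25. The limbs covered nearly the same range, and the difference was -0.05 ± 0.28 (SE, 95% interval -0.66 to 0.56, limma adjusted p = 0.988). On the scale of the A array these signals were 48.8 to 69.6, under the filter, and the test then could not be made. The other B probe set (1456301_at) had 48.6 to 77.8 in hindlimb and 48.6 to 95.7 in forelimb, and the A probe set (1450832_at) 22.7 to 39.3 in hindlimb and 14.9 to 31.8 in forelimb. Both overlapped between the limbs and were not tested.

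Hoxc4, at the 3' end, had signals of 9.9, 11.4 and 15.0 in hindlimb 12, 14 and 26, against 9.1, 11.4 and 10.3 in forelimb 11, 13 and 25 (probe set 1422870_at). All 6 arrays were far under the filter, and no difference was tested.

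**Figure D3:**
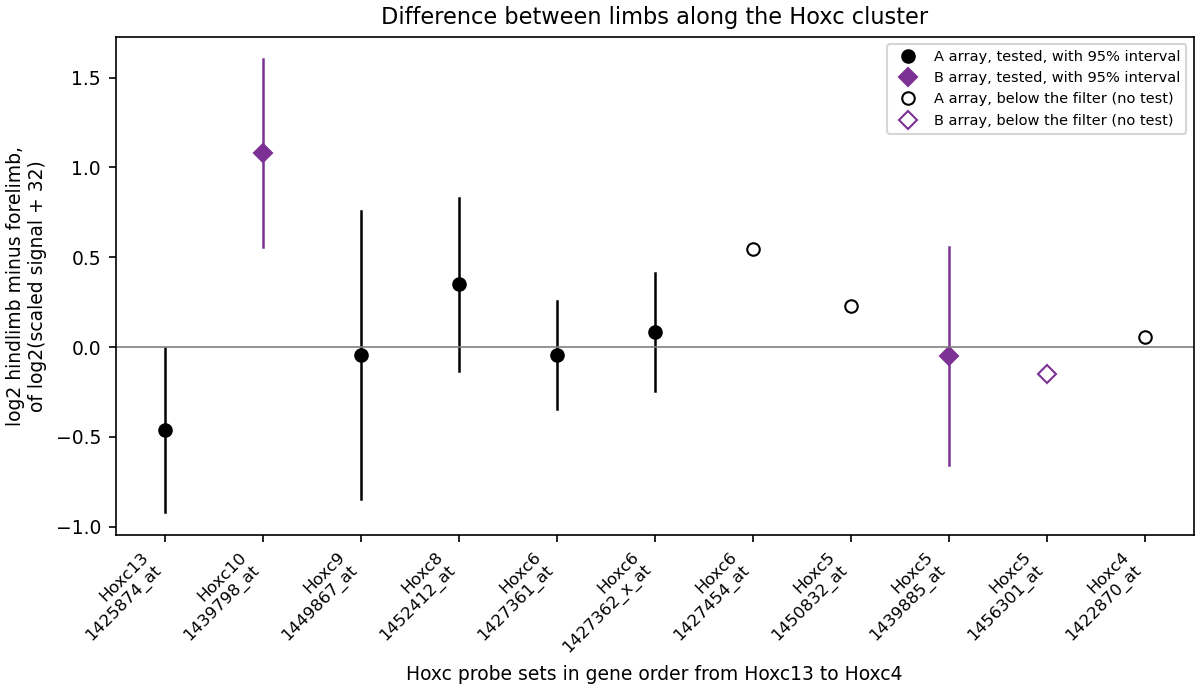
Log2 hindlimb minus forelimb of the 11 Hoxc probe sets in gene order from Hoxc13 to Hoxc4; circles are the A array and diamonds the B array. Filled symbols carry the 95% interval of limma and open ones were below the filter; Hoxc10 (1.08) lies above 0 and Hoxc13 (-0.46) below it, while the intervals of the other 5 tested probe sets cover 0.

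By position, the differences did not run evenly along the cluster. From the 5' end they were -0.46 for Hoxc13, 1.08 for Hoxc10, -0.04 for Hoxc9 and 0.35 for Hoxc8, then -0.04 and 0.08 for Hoxc6 and -0.05 for Hoxc5. The 2 genes whose limbs did not overlap, Hoxc13 and Hoxc10, lay on either side of the unmeasured Hoxc12 and Hoxc11 and had opposite signs. Hoxc13 passed the filter only through the forelimb, so its place beside Hoxc10 supports no pattern by position. Of all tested probe sets, the hindlimb lay wholly below the forelimb in 6.10% (A array) and wholly above it in 4.81% (B array). Hoxc10 was read on another array design than its neighbours, and the difference between the genes was not tested.

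The genes on either side of the cluster were read the same way. Of the 6 nearest protein-coding genes per side, 27 probe sets were present and 23 were tested, and 0 passed the limma adjusted threshold (lowest adjusted p = 0.633, A array, and 0.788, B array). The median difference of the flanking genes was 0.07 (17 probe sets, A array) and -0.08 (6 probe sets, B array). An unadjusted p under 0.05 was reached by 5.54% of all tested probe sets on either array. Of the flanking probe sets, 2 of 17 on the A array reached it (0.44 ± 0.14 and 0.65 ± 0.20). Both were of Tarbp2, a partner of Dicer on the Hoxc13 side. The second Tarbp2 probe set passed the filter only through the hindlimb, with 102 to 132 in hindlimb against 51.8 to 74.0 in forelimb. On the B array 1 reached it, of Copz1, a coatomer subunit on the Hoxc4 side, at -1.19 ± 0.35, with -0.09 on its A probe set. Calcoco1, the gene next to Hoxc13, had -0.08 on both of its probe sets, and Smug1, the DNA repair enzyme next to Hoxc4, had -0.03. The RefSeq gene table also places the noncoding gene Hotair inside the cluster, with no probe set annotated to it.

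Genes of the same number in other clusters are close relatives with like homeodomains and were compared with Hoxc10 and Hoxc13. Hoxa10 had 1284, 972 and 1262 in hindlimb 12, 14 and 26, against 1234, 881 and 1124 in forelimb 11, 13 and 25 on the A array, with a difference of 0.12 ± 0.16 (limma adjusted p = 0.983). Its B probe set gave 0.13 ± 0.21. Hoxd10 had 1353, 1337 and 1310 in hindlimb against 1363, 1936 and 1884 in forelimb, with a difference of -0.35 ± 0.14 (adjusted p = 0.855). Of the genes numbered 10, Hoxc10 and Hoxd10 did not overlap between the limbs and had opposite signs, and Hoxa10 overlapped. For Hoxd10 the limbs nearly touched, with 1353 in hindlimb 12 and 1363 in forelimb 11. Among all tested probe sets, the hindlimb lay wholly below the forelimb in 6.10% (A array) and wholly above it in 4.81% (B array). Of the genes numbered 13, Hoxa13 had -0.09 ± 0.24, and Hoxd13 had -0.14 ± 0.18 (A array) and 0.07 ± 0.12 (B array), each with overlapping limbs, where Hoxc13 had -0.46 ± 0.21.

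**Figure D4:**
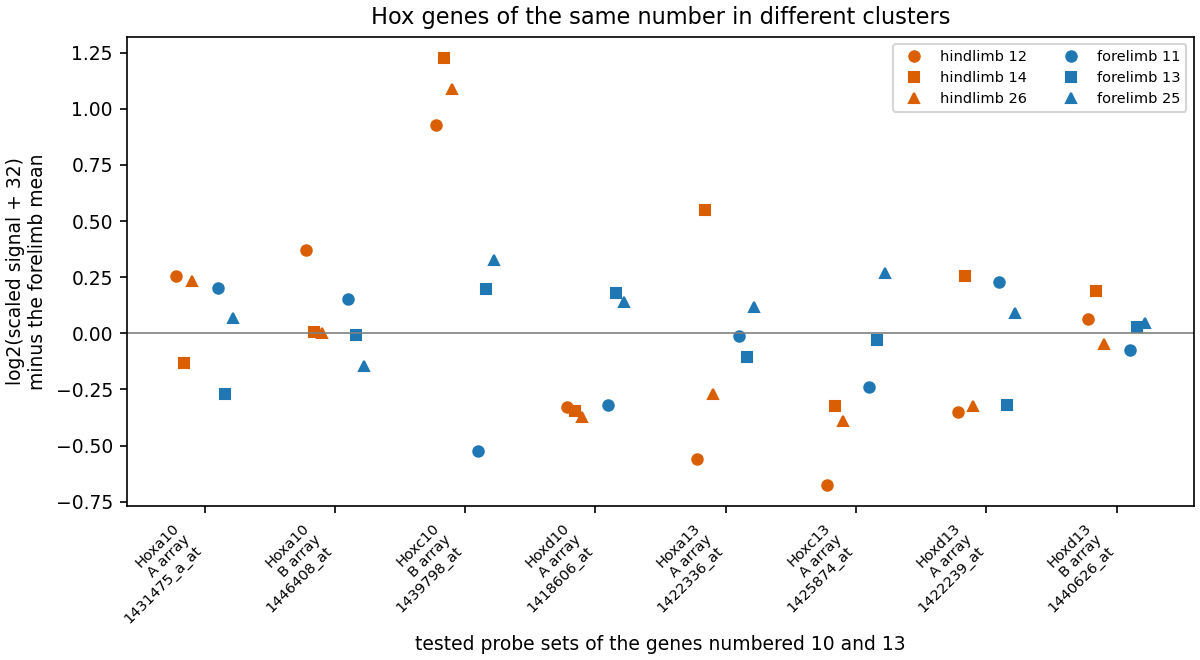
Log2(scaled signal + 32) minus the forelimb mean for the tested probe sets of the Hox genes numbered 10 and 13, with hindlimb samples in orange and forelimb samples in blue. Hindlimb lies above forelimb for Hoxc10 and below it for Hoxd10 and Hoxc13, and the limbs overlap for Hoxa10, Hoxa13 and Hoxd13.

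Of the other Hox clusters and the partners of Hox proteins, none passed the limma adjusted threshold in either direction. At an unadjusted p under 0.05 there were 2 Hoxa probe sets higher and 3 Hoxd probe sets lower in hindlimb (A array), and 1 of Meis2 higher (B array), where 5.54% of all tested probe sets on either array reached it in either direction. On the A array the tested probe sets had a median difference of 0.17 for Hoxa (8 probe sets, 6 positive), -0.25 for Hoxd (6 probe sets, 5 negative) and -0.13 for Hoxb (3 probe sets, 2 negative), next to -0.04 for Hoxc. On the B array the medians were -0.02 for Hoxa (4 probe sets) and -0.21 for Hoxd (3 probe sets), and the only tested Hoxb probe set, of Hoxb3, had -0.31. Values of smallest p on the A array were those of Hoxa9 (0.51) and Hoxa5 (0.54), Hoxd11 (-0.43) and Hoxd9 (-0.44), and Hoxb4 (-0.29) and Hoxb2 (-0.13). On the B array they were those of Hoxa3 (0.36 and -0.26), Hoxa5 (-0.16) and Hoxd8 (-0.33) with Hoxd13 (0.07). A further Hoxa9 probe set of the A array had 0.18 with overlapping limbs. Hoxa5 disagreed between the designs, with the hindlimb wholly above the forelimb on the A array and wholly below it on the B array.

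The TALE cofactors, homeodomain proteins of the Meis, Pbx and Pknox families that bind DNA with Hox proteins, had a median of -0.09 (7 probe sets, A array) and -0.06 (8 probe sets, B array). Meis2 disagreed between its probe sets, with -0.29 (A array), 0.43 and -0.31 (B array), each without overlap, and -0.28 with overlap on a further B probe set. Pknox1 had -0.23 and -0.12 (A array), and Pknox2 0.33 (B array). Of the Polycomb and Kmt2 genes, chromatin regulators known to keep Hox genes off or on, 17 probe sets had a median of 0.09 on the A array, with Bmi1 at 0.26 and Eed at 0.20, and Kmt2d had 0.06 on the B array. Among the regulators of limb type, Tbx5 was lower in hindlimb (-3.65 and -3.83) and Pitx1 (1.95 and 1.69) and Tbx4 on the B array (1.99) were higher, all past the threshold, beside the 1.08 of Hoxc10 that was not. The Tbx4 probe set of the A array (1.33, adjusted p = 0.0514) did not pass, and both of Isl1 were below the filter.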

How the data were processed

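RNA of E12.5 autopods was hybridised to MOE430 A and B arrays, 12 in all. The deposited values are intensities, linear MAS5.0 signals, per the labels (the label of forelimb 11 on the A array gives no method). The authors' values had a 2% trimmed mean of 350.1 (A) and 70.0 (B) on every array of a design. Here each array was scaled to 500, by factors of 1.43 (A) and 7.14 (B), with all its probe sets. Its 64 control probe sets were then left out of the fits. The software settings were not given in the sources used here. Symbols came from the platform annotation, updated by gene identifier through the RefSeq table of GRCm38.p6, which also gave the gene order. Of the A probe sets 20393 carried 1 symbol, 691 several and 1606 none, and of the B probe sets 14674, 245 and 7656.

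Each design was fitted in R 4.3.3 with limma 3.58.1 (lmFit, then eBayes with a variance trend; two-sided; Benjamini-Hochberg over its tested probe sets; threshold 0.05). The code was run on values simulated from limma's own variance prior, which checks the code and not the calls on these arrays. Single values were also compared by exact permutation. The precision is limited by the number of arrays, with median standard errors of 0.16 (A) and 0.23 (B). The members, gene lists and tests were chosen with earlier results of these data known. Every Hoxc probe set was named, as were list members that passed (or, where none did, those with the 2 smallest p per design), genes of the same number as a Hoxc gene with an unadjusted p under 0.05, and the 5 likest probe sets. Alternatives covered the pseudocount, filter, scaling, variance prior, array weights, a replicate block, joint adjustment and each sample left out. Plots were made in Python 3.11.15 (matplotlib 3.10.9).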

Additional observations from a re-analysis of the deposited data

How the results depend on the processing

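In every alternative run, 0 Hoxc probe sets passed on either array. Hoxc10 kept its sign in 16 settings (0.94 to 1.16 in 10 of them, adjusted p of 0.426 to 0.971 over all, and 0.82 to 1.24 with a sample left out). With the values as deposited it was not tested, as 2 of 6 arrays reached 100. Both Hoxc6 probe sets kept their signs in 16 settings, Hoxc8 in 14 and Hoxc13 in 13. With the values as deposited or a filter at 200, Hoxc13, Hoxc9, Hoxc8 and Hoxc5 were below the filter and not tested, nor were Hoxc13 and Hoxc9 under quantile normalization or Hoxc5 on the scale of the A array. Hoxc9 turned positive with a sample left out in 4 of 6 fits (-0.43 to 0.18). Hoxc5 on the B array turned under quantile normalization (0.013) and with a sample left out in 2 fits (-0.16 to 0.059). The cause was not tested.

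Over all probe sets of the A array the count of 5 became 1 without a filter, 14 with array weights, 8 with a replicate block of consecutive sample numbers and 3 to 9 with a sample left out (9 without hindlimb 12, 3 without each other). On the B array the count of 2 became 1 without a filter, 0 without the trend, 4 with the replicate block, 5 on the scale of the A array and 1 to 4 with a sample left out (4 without hindlimb 12, 1 without hindlimb 14 or 26 or forelimb 11 or 25). The labels do not pair consecutive numbers. Deviations from the limb means correlated by 0.076 to 0.208 between consecutive numbers and by -0.151 to 0.063 between others on the A array, where every sample matched its own number best, a hint from the data. On the B array these were 0.0022 to 0.048 and -0.063 to 0.025, and not every sample did. Pairing was not assumed, since 1 consecutive pair on the A array and all on the B array lay under 0.1. With this block Hoxc10 had an adjusted p of 0.499. The signal over background of the dim Hoxc probe sets limits what can be said of Hoxc4, Hoxc5, Hoxc8, Hoxc9 and Hoxc13.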

Other observations

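Forelimb 11 had the lowest forelimb signal on 3 of 5 tested Hoxc probe sets of the A array (Hoxc13, Hoxc9 and Hoxc8) and on 2 of 2 of the B array (Hoxc10 and Hoxc5). Over all tested probe sets it was the lowest forelimb sample in 38.1% (A array) and 31.8% (B array). The pattern was chosen after the values were seen and was not tested.

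Patterns over the 6 samples were set beside those of the 2 Hoxc probe sets of smallest p, as a description with no test, since so few samples give high correlations to many probe sets. The 5 named probe sets most like Hoxc10 on the B array were those of Flvcr1 (Pearson r = 0.990), Bves (0.988), Bcl11a (0.987), Rspo3, an enhancer of Wnt signalling (0.985), and Bmp5, a bone morphogenetic protein (0.985). Their differences were 0.41, 1.79, 0.72, 0.67 and 0.53 in this order, each with a limma adjusted p of 0.555 or more. Of 11388 named probe sets tested there, 126 (1.11%) had an r over 0.9 with Hoxc10. Those most like Hoxc13 on the A array were of Nr2f2, a nuclear receptor (0.997), Il1b (0.993), Zfp296 (0.988), Erlec1 (0.984) and Phlda3 (0.982), with 154 of 14110 (1.09%) over 0.9.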
